A study of Verbena bonariensis with 6 samples.

Results

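LBD41 is a LOB-domain protein, one of a plant-specific family of DNA-binding regulators, and was examined here in roots of Verbena bonariensis through 23 gene clusters. A gene cluster is a group of assembled transcript sequences that stands for a gene or a part of one. The 23 are all clusters, of 8147 in the deposited table of transcription factors and other regulators, whose best Swiss-Prot hit is LOB domain-containing protein 41 of Arabidopsis thaliana. Of these, 3 were at 0 in every library and 20 had counts. The gene was chosen by its difference in counts between cadmium and control libraries, a cluster of it being among those with the greatest difference, so its own values are given as a description and without a test.

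Plants labelled as strain Finesse were grown from seed, 1 seedling per pot, and harvested at 2 months of age. Control plants received no cadmium solution, and the other group had cadmium, a metal toxic to roots, at 100 mg/kg of soil for 20 days. Each group has 3 libraries of whole roots, which the labels call biological replicates. The labels give 15 pots per treatment and 90 pots in all, but not how pots were combined into libraries, so spread between libraries may be smaller than spread between plants. In such bulk samples, fewer cells of a type and less RNA per cell cannot be told apart.

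LOB-domain proteins fall into a large class I, with many members active at organ boundaries and in lateral roots, and a small class II that in Arabidopsis holds LBD37 to LBD42. In Arabidopsis, LBD37, LBD38 and LBD39 are known as repressors of anthocyanin synthesis and of nitrate-responsive genes. LBD41 of that species is known as one of the genes that nearly all cells switch on when oxygen is low. It is there a target of the group VII ethylene response factors, such as RAP2-12, which are degraded in air through their N-terminus and persist when oxygen is low.

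Total regulator counts ranged from 1207479 to 1340255 in control and from 1092183 to 1228042 in cadmium libraries. Expression is given as CPM, counts per 1000000 regulator counts after TMM scaling, which sets the typical regulator level between libraries. With whole-library totals in its place, the median log2 fold change of all tested clusters shifted by −0.35, so results are also given as FPM, fragments per 1000000 of the whole library, where the scale matters. Of 4844 clusters tested with edgeR's quasi-likelihood test, 767 were higher and 709 lower in cadmium at a Benjamini-Hochberg adjusted p below 0.05. With whole-library totals the split was 527 higher and 1114 lower. The deposited FPKM, fragments per kilobase and per 1000000 fragments, lies above FPM per kilobase of full cluster length, more so in short clusters. The root markers SHORT-ROOT, SCARECROW, PLT1, PLT2 and WOX5 all had counts. Their summed FPKM was 34.4 to 41.5 in control and 28.7 to 41.99 in cadmium libraries. Within that sum all 5 genes differed with no overlap between groups, in opposite directions. Such separation was common, since CPM did not overlap in 25.6% of all tested clusters with cadmium higher and 27.9% with cadmium lower. SHORT-ROOT was lower in cadmium, with 29.5 to 34.2 FPKM in control and 17.3 to 23.4 in cadmium. The other 4 were higher. SCARECROW had 4.09 to 6.47 FPKM in control and 6.68 to 8.8 in cadmium, and PLT1 had 0.17 to 0.81 and 1.59 to 3.57. PLT2 had 0.48 to 1 and 1.97 to 4.59, and WOX5 had 0.09 to 0.49 and 1.15 to 1.87. Of the shoot and flower list, YABBY 2 reached at most 0.5 FPKM, and AGAMOUS was at 0 in all control libraries and between 0 and 1.96 FPKM in cadmium. The 29 clusters of that list, 26 of them named for the greening factors GLK1 and GLK2, summed to 86.9 to 96.6 FPKM in control and 50.9 to 56.9 in cadmium, and the part of these markers in the results was not tested.

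LBD41 made up a small share of the regulator counts in control roots and a far greater one under cadmium. The 23 clusters summed to 1952, 1631 and 1903 CPM in control replicates 1, 2 and 3. They summed to 17161, 17581 and 15368 CPM in cadmium replicates 1, 2 and 3. Every cadmium library was above every control library, and the replicates of a group lay close together beside the distance between the groups. The mean was 1828 ± 173 CPM (SD, n = 3) in control and 16703 ± 1175 CPM (SD, n = 3) in cadmium, a 9.14-fold higher level. The log2 fold change of the sum was 3.20 ± 0.10 (SE of the fit). On the whole-library scale the sum was 120 ± 13.6 FPM in control and 863 ± 60.5 FPM in cadmium (SD, n = 3), a 7.16-fold higher level. LBD41 took 0.186% ± 0.020 of all regulator counts in control and 1.61% ± 0.143 in cadmium (SD, n = 3). Ordered by summed FPKM among 1290 Swiss-Prot names, LBD41 stood at places 136, 166 and 143 in the control libraries and at places 8, 8 and 10 in the cadmium libraries.

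**Figure D1:**
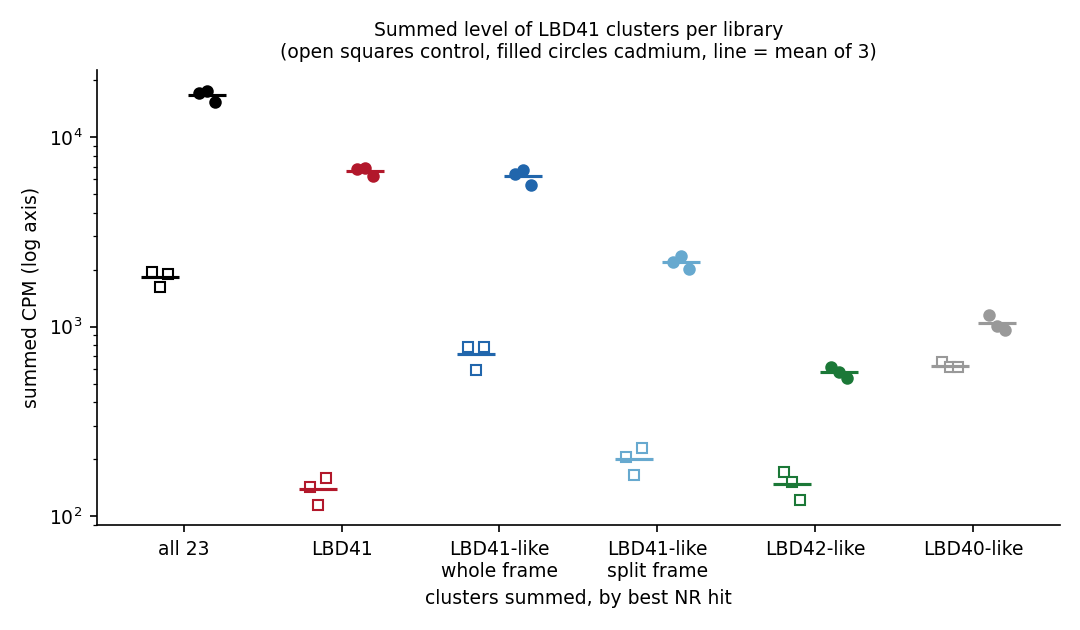
Summed CPM (log axis) of LBD41 clusters in each of 6 libraries, for all 23 clusters and for those sharing a kind of best hit in the NR database. Open squares are control, filled circles cadmium and lines the means of 3. The LBD41 group is 47.9-fold higher in cadmium and the LBD40-like group 1.67-fold.

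The Swiss-Prot name covers clusters of several kinds, as their best hits in the larger NR protein database show. There 4 clusters hit LBD41 of sesame (Sesamum indicum), called LBD41 proper below. A further 9 hit an LBD41-like protein of monkeyflower (Erythranthe), and 5 hit an LBD41-like protein of sesame. Another 3 hit an LBD40-like and 1 an LBD42-like protein of sesame, and 1 cluster, at 0 in all libraries, hit a hypothetical mitochondrial protein of pepper. So 18 of the 23 carry the LBD41 name in both databases, and no other cluster does in NR. Reads of near-identical clusters may have been split between them by the counting, so single-cluster values are uncertain to that extent and sums less so. This grouping was made after the values had been seen.

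The difference between the groups was unequal among these kinds. LBD41 proper summed to 143, 115 and 158 CPM in control replicates 1, 2 and 3 and to 6801, 6914 and 6220 CPM in cadmium replicates 1, 2 and 3. Per length, LBD41 proper summed to 9.96 ± 1.92 FPKM in control, within the spread of the LBD42-like cluster with 7.71 ± 1.29, and to 376 ± 19.9 FPKM in cadmium, above every other kind (SD, n = 3). The next in cadmium were the LBD41-like clusters with a whole reading frame at 191 ± 17.6 FPKM. The LBD40-like clusters had 34.2 ± 1.58 FPKM in control, within the spread of the 33.6 ± 6.04 FPKM of all LBD41-like clusters, and 45.03 ± 3.35 FPKM in cadmium. The mean CPM of LBD41 proper was 47.9-fold higher in cadmium, or 37.6-fold in FPM, with a log2 fold change of 5.58 ± 0.15 (SE). The 15 LBD41-like clusters, 3 of them without a count, summed to 989.8, 755 and 1011 CPM in control and 8587, 9086 and 7651 CPM in cadmium. Their mean was 9.19-fold higher. The LBD42-like cluster had 171, 151 and 122 CPM in control and 616, 578 and 535 CPM in cadmium, a 3.89-fold higher mean. The 3 LBD40-like clusters summed to 648, 610 and 611 CPM in control and to 1156, 1003 and 962 CPM in cadmium, a 1.67-fold higher mean and 1.31-fold in FPM. No kind had groups that overlapped.

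The make-up of the sum therefore differed between the groups. LBD41 proper held 7.56% ± 0.708 of the summed LBD41 counts in control and 39.8% ± 0.594 in cadmium (SD, n = 3). LBD40-like clusters held 34.2% ± 2.80 in control and 6.23% ± 0.515 in cadmium. The share of LBD41-like clusters with a whole frame was 39.1% ± 2.61 in control and 37.4% ± 0.874 in cadmium, and here the libraries of both groups overlapped. Of the 14875 CPM by which the mean sum was higher in cadmium, LBD41 proper gave 43.7%, LBD41-like clusters with a whole and with a split frame 37.2% and 13.4%, the LBD42-like cluster 2.88% and the LBD40-like clusters 2.81%.

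**Figure D2:**
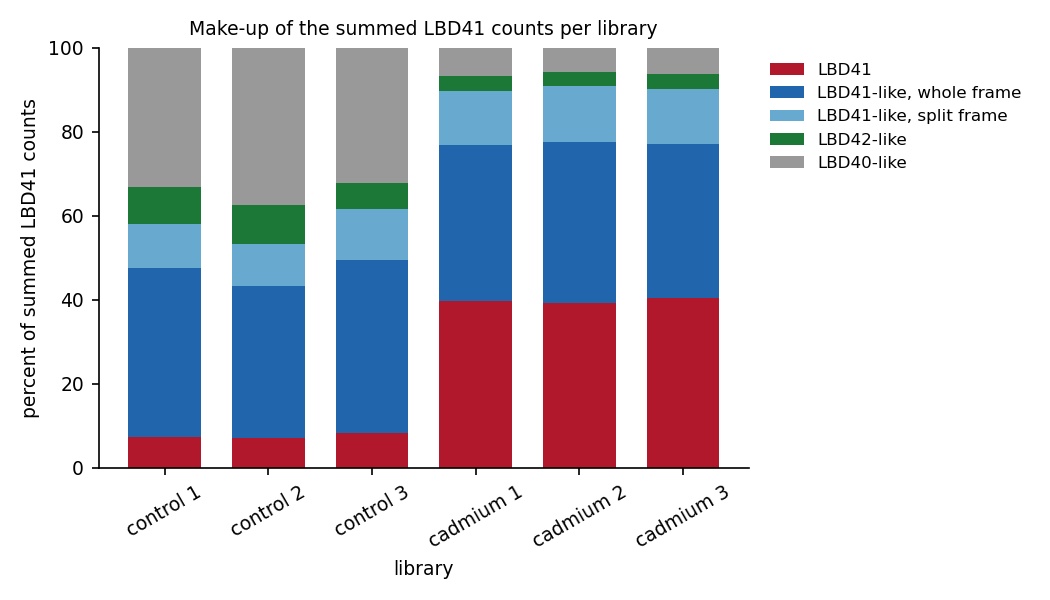
Percent of the summed LBD41 counts held by clusters of each kind of best NR hit, in each of 6 libraries. Replicates of a group are alike, with LBD41 proper at 7.01% to 8.35% in control and 39.3% to 40.5% in cadmium.

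Within LBD41 proper the 4 clusters behaved alike. Cluster-9033.10288, the most abundant, had 5.49, 3.58 and 6.82 FPKM in control replicates 1, 2 and 3 and 205, 214 and 186 FPKM in cadmium replicates 1, 2 and 3. Cluster-9033.10287 had 1.08, 2.32 and 3.09 FPKM in control and 78.2, 76.7 and 69.5 FPKM in cadmium. Cluster-9033.10286 had 2.09, 1.52 and 1.56 FPKM in control and 64.7, 79.9 and 68.7 FPKM in cadmium. In each of the 3, the lowest cadmium library was far above the highest control library. Cluster-9033.10285 was the rarest, with 1.56, 0.51 and 0.27 FPKM in control and 28.2, 25.5 and 31.9 FPKM in cadmium. Its control libraries rest on 33.24, 10.14 and 5.25 counts, so its fold is the least certain of the 4. The log2 fold changes of the 4 clusters lay between 5.46 and 5.70 (SE 0.17 to 0.60), and that of Cluster-9033.10285 was 6.54 without control replicate 1.

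Their annotated reading frames are alike in start and length in 3 of the 4 clusters. Cluster-9033.10285 and Cluster-9033.10286 have a forward frame of 924 bases from base 28, and Cluster-9033.10287 has one of 921 bases from the same base. Cluster-9033.10288 is shorter, with a frame of 705 bases from base 1 of 1057, and its Swiss-Prot alignment score is 350, against 685 to 690 for the other 3. The most abundant cluster of this kind is thus also the one with the shortest annotated frame.

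The LBD41-like clusters come in forms that differ in their reading frame. All 9 with the monkeyflower hit have a single forward frame of 921 bases, here called whole. The 5 with the sesame hit have their match broken into stretches of 282 and 687 bases in different frames with 59 bases between them, here called split. The split match spans 1028 bases, 107 more than the whole one. The silent cluster with the mitochondrial hit has only the second stretch. Split forms held 20.9%, 21.9% and 22.7% of LBD41-like counts in control replicates 1, 2 and 3 and 25.7%, 25.9% and 26.5% in cadmium. The groups did not overlap in this share, which is 21.8% ± 0.899 in control and 26.0% ± 0.411 in cadmium (SD, n = 3).

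Among whole-frame clusters, Cluster-9033.49644 was the most abundant in cadmium. It had 8.38, 4.29 and 7.89 FPKM in control and 110, 125 and 104 FPKM in cadmium replicates 1, 2 and 3, a log2 fold change of 4.39 ± 0.27 (SE). Cluster-9033.49638 had 1.06, 0.19 and 0.70 FPKM in control and 12.3, 6.61 and 8.68 FPKM in cadmium, with a log2 fold change of 4.17 ± 0.61 (SE). Both had groups far apart. Cluster-9033.49653 had at most 0.24 counts in a control library and 166.26, 222.28 and 82.57 counts in cadmium. Set against a floor of 3 counts over the control group, its level was at least 177-fold higher in cadmium, a bound that covers counting error only. Cluster-9033.49650 was detected in 1 control and 2 cadmium libraries, with 12.34 counts in control replicate 2 and 58.86 and 92.04 counts in cadmium replicates 1 and 3. Its groups overlap, and its log2 fold change went from 3.71 to 8.70 without control replicate 2.

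Other LBD41-like clusters had smaller differences between the groups. Cluster-9033.49633 had 133, 158 and 174 CPM in control and 216, 358 and 225 CPM in cadmium, a 1.72-fold higher mean whose spread in cadmium is set by replicate 2. Its groups overlapped in FPKM, with 3.71, 4.27 and 4.87 in control and 4.60, 7.89 and 4.95 in cadmium. Cluster-9033.49660 had 27.8, 28.3 and 21 CPM in control and 28.0, 70.2 and 37.2 CPM in cadmium. Cluster-9033.63044 had 20.5, 12.95 and 15.3 CPM in control and 17.8, 32.8 and 25.1 CPM in cadmium. For the latter 2 the groups overlap in CPM and in FPKM. The split-frame Cluster-9033.49643 had 16.8, 14.6 and 27.5 CPM in control and 44.9, 47.7 and 52.8 CPM in cadmium, a 2.47-fold higher mean with no overlap. Whole-frame LBD41-like clusters, all with an annotated frame of 921 bases, thus ranged from a log2 fold change of 0.63 in Cluster-9033.63044 to 4.39 in Cluster-9033.49644, leaving aside the cluster at 0 in control.

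**Figure D3:**
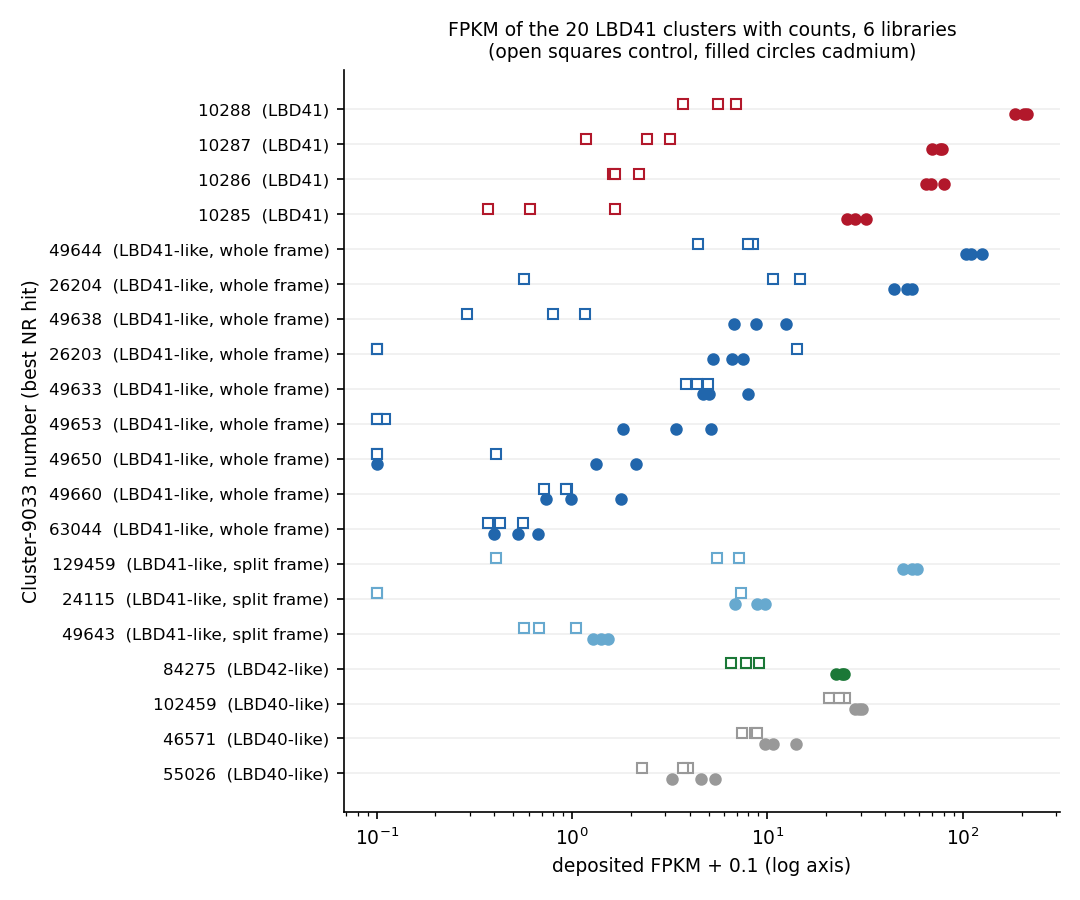
Deposited FPKM plus 0.1 (log axis) of the 20 LBD41 clusters with counts, 1 row each, with 3 control libraries as open squares and 3 cadmium libraries as filled circles. The 4 LBD41 rows are widely separated, the LBD40-like rows lie close, and 4 LBD41-like rows have 1 control square far from the other 2.

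Control replicate 3 had other LBD41-like clusters than the other control libraries. Whole-frame Cluster-9033.26204 had 359, 266 and 11.3 CPM in control replicates 1, 2 and 3, and its counterpart Cluster-9033.26203 had 0, 0 and 344 CPM. Split-frame Cluster-9033.129459 had 189, 151 and 8.08 CPM in the same libraries, and its counterpart Cluster-9033.24115 had 0, 0 and 193 CPM. In both cases the library low in one cluster of the pair was high in the other. Within a pair the frames have the same length and begin at base 238 in one cluster and base 240 in the other, and the clusters differ by 2 bases in length (1856 and 1858, 2012 and 2014).

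Shares within each pair show how complete this exchange was. Cluster-9033.26203 held 0 of 491 and 0 of 329 counts of its pair in control replicates 1 and 2, which allows shares of up to 0.611% and 0.912%. It held 96.8% in control replicate 3 (Wilson 95% interval 94.7% to 98.1%). In the cadmium libraries it held 9.12%, 11.9% and 12.7%, with intervals from 7.98% to 14.3%. Cluster-9033.24115 held 0 of 259 and 0 of 186 counts of its pair in control replicates 1 and 2, 96.0% in control replicate 3 (92.8% to 97.8%), and 11.01%, 14.2% and 15.0% in cadmium. All cadmium libraries thus held both clusters of each pair in like proportion, and each control library almost only 1. Intervals and floors cover counting error only.

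The sums of these pairs did not show the exchange. Cluster-9033.26203 and Cluster-9033.26204 together had 359, 266 and 355 CPM in control and 1832, 1935 and 1581 CPM in cadmium, a 5.45-fold higher mean. Cluster-9033.24115 and Cluster-9033.129459 together had 189, 151 and 201 CPM in control and 2165, 2303 and 1975 CPM in cadmium, an 11.9-fold higher mean. In both pair sums control replicate 3 lay within or just beside the other control libraries. Taken singly, without control replicate 3 the log2 fold change of Cluster-9033.26204 went from 2.90 to 2.34, that of Cluster-9033.129459 from 3.998 to 3.45, and the other cluster of each pair was at 0 in the control libraries left. The LBD41 sum was little touched, with a log2 fold change of 3.23 without that library. Across the table, control replicate 3 stood at least 8-fold above or below both other control libraries (CPM + 1, at least 50 counts in the highest) in 113 of 3256 clusters, against 79 and 86 for control replicates 1 and 2 and 83 to 91 of 2934 for the cadmium libraries.

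**Figure D4:**
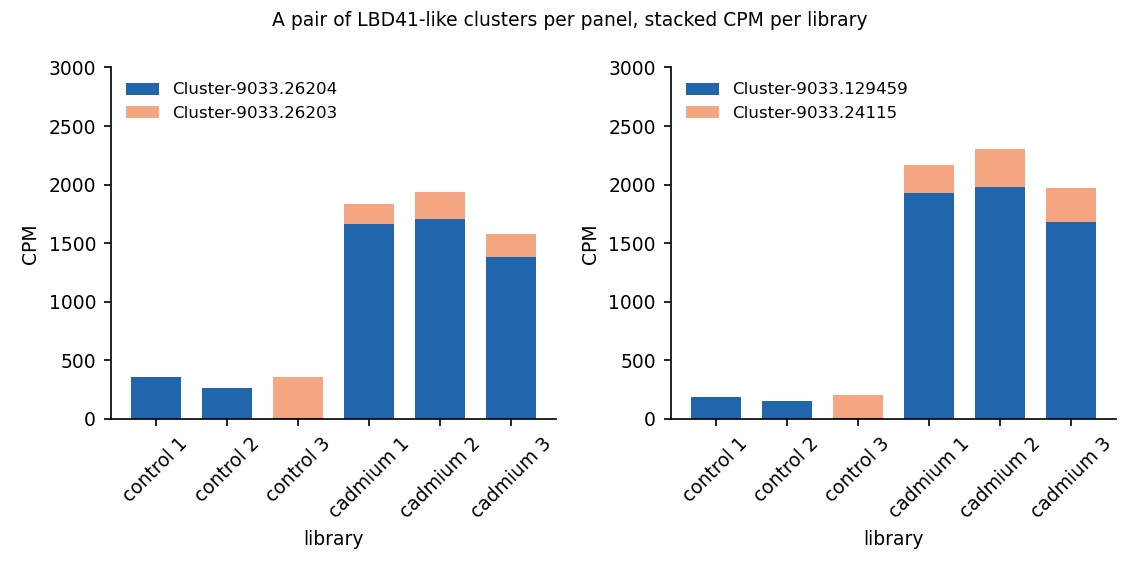
CPM of the clusters of each exchanging pair, stacked, in each of 6 libraries. In control replicate 3 nearly the whole bar belongs to the cluster absent from control replicates 1 and 2, while the cadmium bars hold both, with 9.12% to 15.0% in the minor cluster.

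The LBD40-like and LBD42-like clusters complete the 23. Cluster-9033.102459, LBD40-like, was the most abundant of all 23 in control, with 24.8, 20.7 and 23.1 FPKM, and had 29.5, 30.4 and 28.1 FPKM in cadmium. Cluster-9033.46571 had 7.31, 8.52 and 8.76 FPKM in control and 14.0, 10.5 and 9.61 FPKM in cadmium. Cluster-9033.55026 had 3.82, 3.58 and 2.17 FPKM in control and 5.29, 3.16 and 4.48 FPKM in cadmium, so that its groups overlap in FPKM. The frames of these 3 are annotated on the reverse of the assembled sequence, unlike the other members. Cluster-9033.84275, LBD42-like, had 9, 7.71 and 6.42 FPKM in control and 24.7, 24.0 and 22.3 FPKM in cadmium.

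In order of FPKM, the leading clusters in cadmium were Cluster-9033.10288 (202 ± 14.2), Cluster-9033.49644 (113 ± 10.6), Cluster-9033.10287 (74.8 ± 4.64) and Cluster-9033.10286 (71.1 ± 7.87), the last 2 within their spread of each other (SD, n = 3). Cluster-9033.129459 (54.1 ± 4.46) and Cluster-9033.26204 (50.4 ± 5.34) followed, also within their spread, and then Cluster-9033.102459 and Cluster-9033.10285 with 29.3 ± 1.16 and 28.5 ± 3.18. In control, Cluster-9033.102459 led with 22.9 ± 2.07, and the next, Cluster-9033.26204 (8.56 ± 7.30), Cluster-9033.46571 (8.20 ± 0.777), Cluster-9033.84275 (7.71 ± 1.29) and Cluster-9033.49644 (6.85 ± 2.23), were within their spread of each other.

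All 20 members with counts passed the filter on low counts and had a log2 fold change above 0, against 47.4% of all tested clusters. Their median was 2.53, against −0.08 over all tested clusters, 13 were at 1 or more, against 20.2% of all, and 7 at 4 or more, against 2% of all. Groups did not overlap in CPM, with cadmium higher, in 16 members, against 25.6% of all tested clusters. Of these, Cluster-9033.49633, Cluster-9033.24115 and Cluster-9033.55026 had groups that overlapped in FPKM. In all 12 members were called higher, against 15.8%, with none lower, while 30.5% of all tested clusters were called in either direction. The authors' deposited table gives a q-value below 0.05 and a higher level in cadmium for 13 of the 20, against 8.95% of its clusters with a q-value. These counts come from the contrast for which the gene was picked, and nothing is read from them.

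The nearest relatives, class II proteins LBD37, LBD38 and LBD42, had a few calls in both directions. With so few clusters, nothing is read from these counts about the relatives as a group. Of their 16 clusters 12 were tested, 3 rose and 2 fell, against 15.8% and 14.6% of all tested clusters (edgeR's quasi-likelihood test, Benjamini-Hochberg adjusted over all clusters), with a median log2 fold change of −0.55. In all 2 were called, with 0 lower, without control replicate 1, without control replicate 3 and without cadmium replicate 1. Without control replicate 2 and without cadmium replicate 3 the number was 3, with 1 lower. No cluster was named for LBD39 or LBD40 in Swiss-Prot. LBD42 (Cluster-9033.92365), which shares its NR hit with the LBD42-like member Cluster-9033.84275, had 757, 798 and 768 CPM in control and 3308, 3034 and 3145 CPM in cadmium. It rose by 2.03 ± 0.06 on the log2 scale (SE, edgeR, adjusted p = 1.65e-05), close to the 1.96 ± 0.15 of its LBD42-like neighbour.

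Of 4 tested LBD37 clusters 1 rose, and of 7 tested LBD38 clusters 1 rose and 2 fell, against 15.8% higher and 14.6% lower of all tested clusters. Cluster-9033.9550, named LBD37, had 215, 183 and 173 CPM in control and 458, 494 and 420 CPM in cadmium, and rose by 1.26 ± 0.13 on the log2 scale (SE, edgeR, adjusted p = 0.00104). The most abundant LBD38 cluster, Cluster-9033.99182, had 1417, 1349.6 and 1362 CPM in control and 1155, 1011 and 1161 CPM in cadmium. It fell by 0.31 on the log2 scale (SE 0.08, edgeR, adjusted p = 0.0258). The call held without cadmium replicate 3 and was lost on removal of each of the other 5 libraries (edgeR, adjusted p 0.0606 to 0.122). The scarce LBD38 clusters Cluster-9033.9552 and Cluster-20232.0 rose by 2.51 ± 0.73 and fell by 2.02 ± 0.59 on the log2 scale (SE, edgeR, adjusted p = 0.0456 and 0.0457). Both calls ended when any library was left out, and the first also with whole-library totals (edgeR, adjusted p = 0.0695).

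Summed over their Swiss-Prot names, these relatives changed far less than LBD41, apart from LBD42. LBD37 summed to 670 ± 35.0 CPM in control and 979 ± 149 CPM in cadmium (SD, n = 3; log2 fold change 0.55 ± 0.11, edgeR, adjusted p = 0.00226). In FPM its groups overlapped, with 44.1 ± 3.12 and 50.6 ± 8.11. The LBD37 sum includes Cluster-9033.9549, not tested by itself. That cluster had 0 CPM in all control libraries and 89.0, 0 and 378 CPM in cadmium replicates 1, 2 and 3. LBD38 summed to 1646 ± 29.0 CPM in control and 1319 ± 99.4 CPM in cadmium (log2 fold change −0.31 ± 0.07, edgeR, adjusted p = 0.00484), and was lower in FPM too, at 108 ± 2.18 and 68.1 ± 4.64. Of the 55 tested clusters of all LOB-domain proteins other than LBD41, 22 rose and 7 fell (edgeR, adjusted p below 0.05), against 15.8% and 14.6% of all tested clusters, with a median log2 fold change of 0.18. The median was −0.24 with whole-library totals. Those counts were 16 and 3 without control replicate 3, 15 and 4 without cadmium replicate 1, and 13 and 5 without cadmium replicate 3.

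Low-oxygen regulators were sought by name among the clusters, and group VII ethylene response factors were found. ERF073, also known as HRE1 and itself induced by low oxygen in Arabidopsis, had 2 clusters, RAP2-12 had 5 and RAP2-3 had 5. The words for RAP2-2, HRE2, HRA1, NAC102, MYB2, VRN2 and ZPR2 matched no cluster in the names searched. NR names were searched only for clusters without a Swiss-Prot name, so a match in NR alone could be missed. That was so for ERF071, another name of HRE2, which is the best NR hit of both ERF073 clusters. Absence of HRE2 is therefore not shown. Of the 12 clusters 11 were tested, 5 rose and 0 fell (edgeR, adjusted p below 0.05), against 15.8% and 14.6% of all tested clusters. By DESeq2's Wald test 6 were higher and 0 lower, against 1053 and 1041 of all 4844 tested clusters. The median edgeR log2 fold change of the 11 clusters was 0.45. With whole-library totals 4 rose and 2 fell, and the median was 0.10.

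Both ERF073 clusters rose, and their best NR hit is ERF071 of sesame, so the databases differ on which factor these clusters stand for. Cluster-9033.82600 had 5969, 6453 and 6005 CPM in control and 9939, 9767 and 9677 CPM in cadmium, and rose by 0.67 ± 0.05 on the log2 scale (SE, edgeR, adjusted p = 0.000323). Cluster-9033.76306 rose by 0.63 ± 0.08 (SE, edgeR, adjusted p = 0.00207). With whole-library totals both remained called, at 0.33 and 0.28 (edgeR, adjusted p = 0.00227 and 0.0337).

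RAP2-12, a constitutively made sensor of low oxygen in Arabidopsis, had a cluster with 3726, 3284 and 3295 CPM in control and 5608, 5613 and 6275 CPM in cadmium (Cluster-9033.82142). It rose by 0.76 ± 0.08 on the log2 scale (SE, edgeR, adjusted p = 0.00105). Its second abundant cluster, Cluster-9033.113618, rose by 0.39 ± 0.08 (SE, edgeR, adjusted p = 0.0151). That call ended with whole-library totals, where the log2 fold change was 0.04 (edgeR, adjusted p = 0.736), and without control replicate 2 or cadmium replicate 1 (edgeR, adjusted p = 0.0520 and 0.0558).

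RAP2-3, another group VII factor, gave a sum of 5652 ± 187 CPM in control and 5637 ± 543 CPM in cadmium (SD, n = 3; log2 fold change 0.00 ± 0.08, edgeR, adjusted p = 0.977). In FPM its sum was lower in cadmium, at 372 ± 18.5 and 291 ± 27.3, with no overlap. A scarce cluster named RAP2-3, Cluster-9033.21291, had 10.97, 10.5 and 11.3 CPM in control and 44.9, 40.2 and 25.1 CPM in cadmium. It rose by 1.74 ± 0.42 on the log2 scale (SE, edgeR, adjusted p = 0.0235). Here too only removal of cadmium replicate 3 kept the call (edgeR, adjusted p 0.0647 to 0.0886 for the other 5). Counts of low-oxygen regulators fell from 5 to 3 changed without control replicate 2 and without cadmium replicate 1. Next to a log2 fold change of 3.20 for the LBD41 sum, the name sums of ERF073 and RAP2-12 gave 0.67 ± 0.05 and 0.60 ± 0.07 (SE). In FPM the ERF073 and RAP2-12 sums were 1.25-fold and 1.18-fold higher in cadmium, and the LBD41 sum 7.16-fold.

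**Figure D5:**
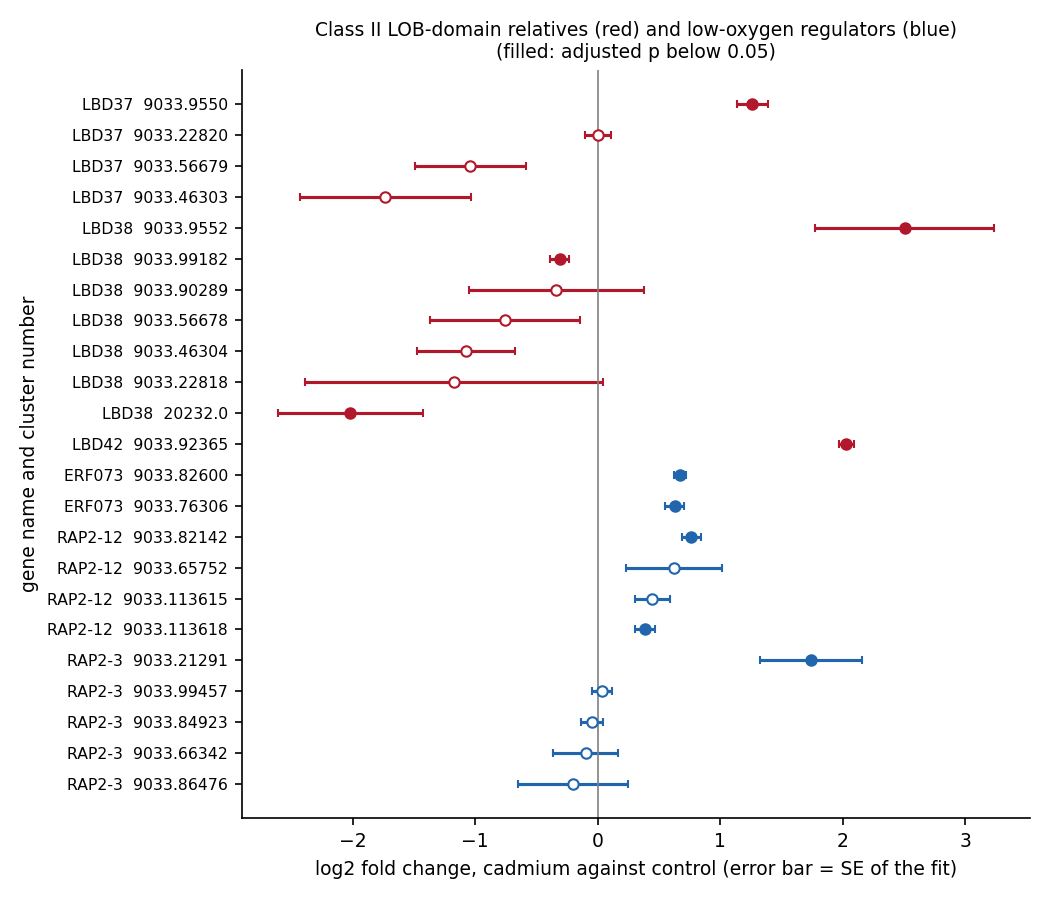
Log2 fold change, cadmium against control, with the SE of the fit as error bar, for 12 class II LOB-domain relatives (red) and 11 low-oxygen regulators (blue). Filled points passed at an adjusted p below 0.05. LBD42 at 2.03 has a small error, most LBD38 points lie below 0, and the ERF073 points lie at 0.63 and 0.67.

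The clusters whose profile over the 6 libraries was nearest to the LBD41 sum were found by the root mean square difference of centred log2 CPM (prior count 2) among 4503 candidates, where the median distance was 1.76. WRKY28, of a family known from defence and stress responses, was nearest at 0.124, with 75.3, 73.7 and 80.0 CPM in control and 853, 768 and 773 CPM in cadmium. Dicer homolog 2, an enzyme that makes small RNAs from viral and other double-stranded RNA, followed among the abundant ones at 0.154, with 168, 130 and 131 CPM in control and 1117, 1457 and 1070.1 CPM in cadmium. ERF106 and WRKY70 lay at 0.160 each, with means of 269 ± 13.1 and 418 ± 22.8 CPM in control and 2062 ± 68.7 and 3398 ± 282 CPM in cadmium (SD, n = 3). A Myb family protein (At1g14600) at 0.146 and WOX9 at 0.161 were scarce, with 0 counts in control and 40 and 51 counts over the cadmium group, at least 15.0-fold and 19.2-fold higher against 3 counts over the control group. Their distance depends on the prior count. All 6 were picked for their likeness, over 6 libraries in 2 groups, so no test is given.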

How the data were processed

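RNA was taken from roots with Trizol, and a TruSeq kit of Illumina served for the libraries, per the labels' protocols. Bowtie2 2.0.6 and TopHat2 2.0.12 are named without a role in the submitters' processing notes. Per the file headers, the authors deposited expected counts per cluster (with decimals), FPKM values, and the log2 ratio and q-value of cadmium over control. Which test gave these is not given in the sources consulted. The alignment score of the best NR and Swiss-Prot hit was deposited by the authors too.

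Expected counts were rounded and fitted in R 4.3.3 with edgeR 4.0.16. Low counts were removed by filterByExpr (minimum count 10, minimum total 15), libraries were scaled by TMM, and the quasi-likelihood model held the group alone. P-values were adjusted by Benjamini-Hochberg over all tested clusters. SE is the size of the log2 fold change over the square root of F. The LBD41 sum and the sums per kind replaced their clusters in separate fits of the whole table, and name sums were fitted after summing all clusters by Swiss-Prot description. Whole-library totals were recovered from count over FPKM against length (clusters above 300 counts and 10 FPKM) and ranged from 18619728 to 23343050 fragments. The fit was tried on simulated counts with a smaller spread than these data, whose common biological coefficient of variation was 0.57. That trial therefore does not show the error rate here. Python 3.11.15, pandas 2.3.3, scipy 1.17.1 and matplotlib 3.10.9 were used otherwise. DESeq2 1.42.0 and limma 3.58.1 served as alternatives.

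The members and lists were chosen with earlier results of these data known. Named genes are all members, changed class II and low-oxygen clusters (at most 4 per name and direction), and the 6 clusters nearest to the LBD41 sum that have a described function and average 10 counts or more in the group where they are higher. No sequence of the clusters was used here.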

Additional observations from a re-analysis of the deposited data

How the results depend on the processing

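All 20 tested LBD41 clusters had a log2 fold change above 0 under every alternative run, and 12 to 14 were at 1 or more. The log2 fold change of the LBD41 sum was 2.84 with whole-library totals, 3.02 and 3.03 with limma-trend on log2 FPKM at a pseudocount of 1 and of 0.1, and 3.84 with members taken by the NR description, alone or with the Swiss-Prot one. It lay between 3.12 and 3.26 when each library was left out. Of the values of single LBD41 clusters under the alternatives, 34 from 17 clusters moved by more than the spread between replicates and 246 did not, and none changed sign.

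Counts moved more. Class II relatives had 5 changed clusters of 12 tested, but 2 of 16 with no filter and 2 to 5 with a library left out. With limma-trend on either FPKM scale 8 of 12 changed, where all regulators gave 2149 and 2041 of 4844. After Swiss-Prot sums 3 of 3 class II names changed. Low-oxygen regulators had 5 of 11, but 2 of 3 names after Swiss-Prot sums and 3 to 5 with a library left out. Other LOB-domain proteins had 29 of 55, but 17 of 20 names after Swiss-Prot sums and 18 to 23 with a library left out. All regulators had 1476 of 4844, but 829 of 1449 after Swiss-Prot sums and 1136 to 1215 with a library left out. After Swiss-Prot sums the counts were thus lower, while the share called was higher in every list and over all regulators. Of the single relatives' values, 37 from 5 clusters lost the call in the same direction and 103 kept it. These sums test fewer features, and a left-out library leaves fewer samples.

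The shared replicate numbers are not said to mark a pairing, and deviations of same-numbered libraries correlated at 0.005, 0.029 and −0.004. With the replicate number as a block, 886 clusters were called in all, 17 other LOB-domain and 2 class II clusters and 4 low-oxygen regulators among them, and the LBD41 sum gave 3.20. Precision is limited where counts are few, as in Cluster-9033.10285 with 5.25 to 33.24 counts in control libraries and the widest SE of the 4 LBD41 clusters, 0.60.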
